A study of Mus musculus with 4 samples.

Results

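The p53 pathway genes described here were 32 genes: p53 itself (Trp53), its main regulators and genes that p53 is known to switch on. They were chosen by gene symbol from general knowledge of the pathway, with earlier results of these data already known. The other gene lists below were chosen with the same knowledge. Each gene was represented by its brightest probe on the array. Of the 32 genes, 26 were detected (flagged well above background on each array of 1 population or more) and were kept, among 11958 genes kept on the whole array.

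p53 is a transcription factor that is held at a low level by the ubiquitin ligase Mdm2 and accumulates when DNA is damaged or the cell is stressed. It then binds DNA as a tetramer and raises transcription of genes that stop the cell cycle, trigger cell death, repair DNA or adjust metabolism, and of genes such as Mdm2 that switch it off again. In skin, p53 is best known for its part in the response to ultraviolet light, and melanocytes and melanoma cells can carry an intact p53 whose activity is restrained by these regulators.

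The study asked how melanoma cells with little or much of the growth factor receptor Met at their surface differ from each other. B16-F10, an established mouse melanoma line from the C57BL/6 strain, was sorted by flow cytometry for surface Met into a Met-low and a Met-high population. Both populations were unmodified and untreated beyond the sort, and were grown apart for 3 days before RNA was taken. Each population was hybridised to 2 one-colour Agilent arrays, made from independently prepared cells, so there were 4 arrays, all on the same slide. The sort was on Met protein, the populations were not clones, and no p53 protein, DNA damage or drug treatment was measured on these arrays. The slide held the Met-low arrays at its first positions and the Met-high arrays at the next ones, so an effect of position cannot be told apart from one of population.

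Signals are given as log2 units relative to the 75th percentile of all probes on the same array, so 0 is a fairly bright probe and every step of 1 is a doubling. Levels of different genes are not compared, since each probe has its own brightness. That percentile lay between 858 and 1331 intensity units, 50.01% to 53.6% of spots were well above background, and none was saturated. The log2 ratio is always Met-high minus Met-low, and the standard error (SE) is that of limma's fit over all 11958 genes, with p-values adjusted by the Benjamini-Hochberg method over the same genes. With 2 arrays against 2, these p-values measure only the spread between the arrays, and a permutation of the labels alone could not give a two-sided exact p under 0.333. In RNA from a whole population, fewer cells that express a gene and less RNA per cell cannot be told apart.

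Markers of the melanocyte lineage were abundant in both populations. The pigment cell genes Dct, Pmel, Mlana and Tyrp1 lay between 7.86 and 8.88 on all 4 arrays. Mitf and Sox10 lay between 5.13 and 5.81, and Tyr between 3.52 and 3.85. Of the 7 melanocyte markers, 0 passed an adjusted p of 0.05. Their log2 ratios ranged from -0.14 for Mitf to 0.53 for Sox10 (adjusted p = 0.13). Of 8 markers of other cell types, Ptprc, Lyz2, Cdh5, Krt5 and Epcam were not kept. Pecam1, Cd3e and Krt14 were kept and did not pass the test, and Cd3e lay between 0.32 and 1.33 on the 4 arrays. Met mRNA itself was at -0.26 and -0.89 on the Met-low arrays and at 1.03 and -0.43 on the Met-high arrays. The groups overlapped for Met, with a log2 ratio of 0.87 (SE 0.51, adjusted p = 0.33).

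The promoters of 2 of the genes that passed the test, Cdkn1a and Ccng1, are shown because they hold a near-perfect copy of the p53 consensus. This consensus is a pair of 10-base half-sites, and it was searched as 20 bases without a spacer, keeping the core C and G of each half-site and allowing 3 mismatches at the other positions. It reads the same on both strands. The sequences are RefSeq windows of build GRCm38.p6, given in the direction of the gene from 250 bases before its start to the base before the start, and the capitals mark the match. The Cdkn1a window lies on the plus strand of chromosome 17 (chr17:29090729-29090978), at the upstream one of the 2 starts listed, and the Ccng1 window lies on the minus strand of chromosome 11 (chr11:40755287-40755536).

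Cdkn1a: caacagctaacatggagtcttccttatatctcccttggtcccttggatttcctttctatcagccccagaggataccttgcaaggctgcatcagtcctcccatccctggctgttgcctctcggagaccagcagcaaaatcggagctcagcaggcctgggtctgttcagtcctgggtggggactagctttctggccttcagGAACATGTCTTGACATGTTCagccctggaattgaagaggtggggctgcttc
Ccng1: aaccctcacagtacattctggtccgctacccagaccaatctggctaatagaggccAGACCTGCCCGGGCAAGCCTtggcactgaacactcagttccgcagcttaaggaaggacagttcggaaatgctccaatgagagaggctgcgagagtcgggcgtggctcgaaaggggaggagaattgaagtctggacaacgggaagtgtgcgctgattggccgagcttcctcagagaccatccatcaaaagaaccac

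Counted from the start of transcription, the Cdkn1a match began at position -51 and the Ccng1 match at position -195, and each had 1 mismatch to the consensus. In all, 26 of the 32 genes had a RefSeq promoter entry, and 6 of these 26 held a match with at most 3 mismatches. Among 27025 genes with a promoter entry, 1.63% held such a match, and 22 genes (0.0814%) held one with at most 1 mismatch. The other 4 genes with a match were Bbc3, Aen, Sesn1 and Trp53, each with 3 mismatches. Their matches are given below in the direction of the gene, which is the plus strand in all 4, and the capitals mark the whole match.

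Bbc3, chr7:16309486-16309505: CTGCAAGCCCCGACTTGTCC
Aen, chr7:78895937-78895956: GGGCTTGTCCGGGCAAGGAG
Sesn1, chr10:41887266-41887285: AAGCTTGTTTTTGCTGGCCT
Trp53, chr11:69580284-69580303: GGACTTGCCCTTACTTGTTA

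An exact single half-site stood in the 300-base window of 11 of the 26 genes, against 9.55% of all genes with an entry. Btg2 and Plk2, which passed the test, had an entry without either kind of match, and Trp53inp1 had no entry. These matches are letters in a window around the start, and sites farther away or within introns were not searched.

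In the Met-high population, 5 of the 26 p53 pathway genes were lower and 0 were higher than in the Met-low population at an adjusted p of 0.05. The 5 genes were Trp53inp1, Btg2, Plk2, Cdkn1a and Ccng1, which fell 2.58-fold to 5.31-fold. In the grouping by role used here, 4 of them were placed under cell cycle arrest. Among all 11958 genes, 3.82% were called lower and 1.95% higher. At an unadjusted p of 0.05, 13 of the 26 were lower and 1 was higher, against 11.9% and 14.3% of all genes. In 7 of the 26 the Met-high mean was more than 2-fold lower, and in 0 it was more than 2-fold higher, against 5.29% and 2.43% of all genes. Both Met-low arrays lay above both Met-high arrays in 18 of the 26, against 22.6% of all genes, and the reverse held in 3 of the 26, against 35.8% of all genes. The median log2 ratio was -0.60 over the 26 genes and 0.10 over all genes.

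**Figure D1:**
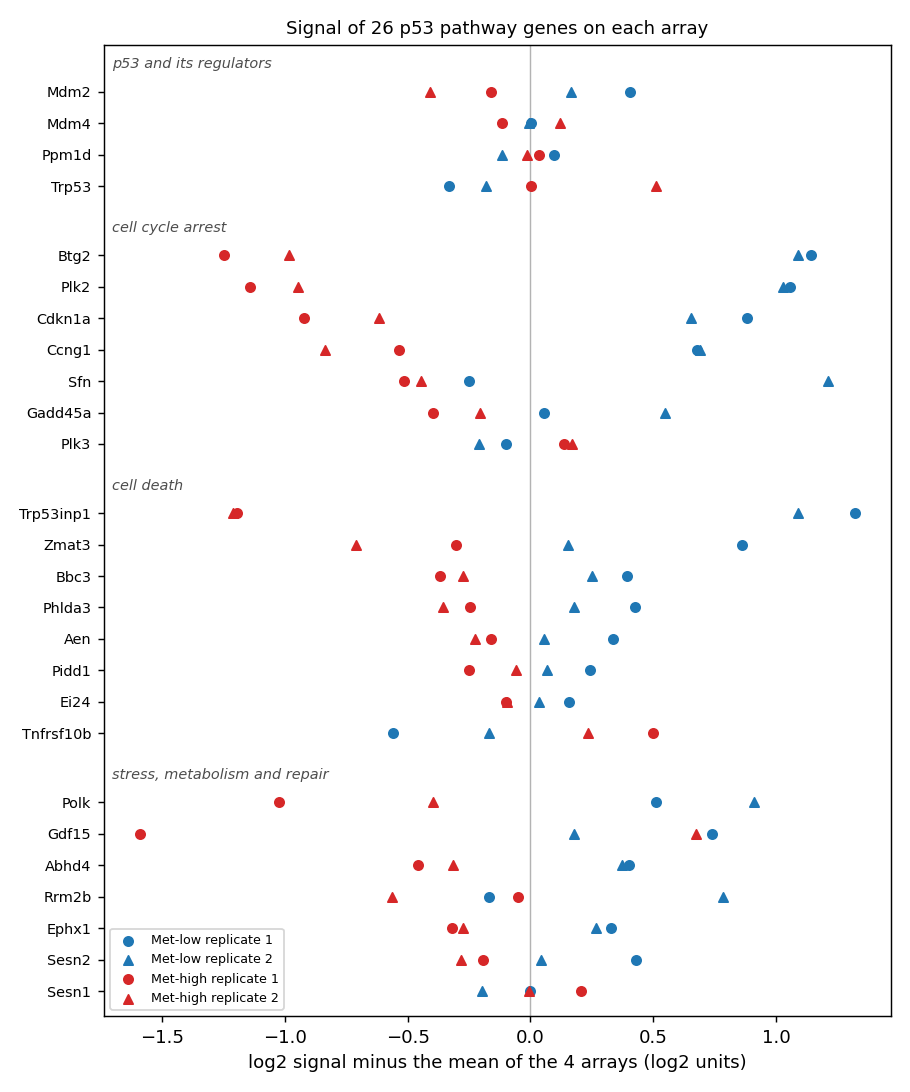
Signal of the 26 genes on each of the 4 arrays, grouped by role; the x axis is the log2 signal minus the mean of that gene over the 4 arrays, circles are replicate 1, triangles are replicate 2, Met-low is blue and Met-high is red. The blue points lie to the right of the red points in 18 genes, and the red points lie to the right of the blue points in Plk3, Trp53 and Tnfrsf10b.

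p53 and its direct regulators did not pass the test. Trp53, the gene for p53 itself, was at -0.82 and -0.66 on the Met-low arrays and at -0.48 and 0.03 on the Met-high arrays. The Met-high arrays were thus the higher ones, without overlap, while the log2 ratio of 0.52 (SE 0.22) had an adjusted p of 0.22. Mdm2, the ligase that marks p53 for destruction and is itself a p53 target, was at 4.12 and 3.88 on the Met-low arrays and at 3.55 and 3.30 on the Met-high arrays. Its order was the opposite of that of Trp53, with no overlap, a log2 ratio of -0.57 (SE 0.19) and an adjusted p of 0.14. Mdm4, the partner of Mdm2 that blocks p53 activity, was at -2.84 and -2.85 on the Met-low arrays and at -2.96 and -2.72 on the Met-high arrays. These values overlapped, and the log2 ratio of 0.01 had a 95% interval from -0.42 to 0.43. Ppm1d, a phosphatase that dampens p53 signalling, overlapped too, with a log2 ratio of 0.02 and a 95% interval from -0.40 to 0.44. The signs of the Mdm4 and Ppm1d ratios changed with the scaling of the arrays.

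Among the genes grouped under cell cycle arrest, 7 of 8 were kept and 4 fell, against 3.82% of all genes. The median log2 ratio over the 7 was -1.37. Cdkn1a encodes p21, the inhibitor of cyclin-dependent kinases that carries out the p53 arrest in G1. Its brightest probe (NM_007669) was at 3.997 and 3.77 on the Met-low arrays and at 2.19 and 2.50 on the Met-high arrays. The groups lay far apart relative to their spread, with a log2 ratio of -1.54 (SE 0.19, adjusted p = 0.018), a 2.90-fold fall. A second probe, for the transcript NM_001111099, was at -0.01 and 0.01 on the Met-low arrays and at -1.89 and -3.58 on the Met-high arrays. This probe had the same order, with a log2 ratio of -2.73 (SE 0.56), but its Met-high arrays differed from each other and its adjusted p over all probes was 0.073. The deposited tables do not tie the 2 probes to the 2 promoters.

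Btg2, an antiproliferative protein that works with the mRNA deadenylation machinery, had the largest fall of this group. It was at -2.003 and -2.06 on the Met-low arrays and at -4.40 and -4.13 on the Met-high arrays. The populations did not overlap, and the log2 ratio was -2.23 (SE 0.17, adjusted p = 0.0075), a 4.70-fold fall. Plk2, a polo-like kinase of centriole duplication and the stress response, was at -2.19 and -2.22 on the Met-low arrays and at -4.39 and -4.20 on the Met-high arrays. It likewise showed no overlap, with a log2 ratio of -2.09 (SE 0.16, adjusted p = 0.0076), a 4.25-fold fall. Btg2 and Plk2 were dim, and with normexp background correction their log2 ratios were -1.26 and -1.07, still past the threshold.

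Ccng1 encodes cyclin G1, a p53 target that brings a phosphatase to Mdm2. It was at 3.04 and 3.06 on the Met-low arrays and at 1.83 and 1.53 on the Met-high arrays. The Met-low arrays were nearly equal and both were higher, with a log2 ratio of -1.37 (SE 0.18, adjusted p = 0.020), a 2.58-fold fall.

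The other 3 kept genes of arrest did not pass the test. Sfn, the 14-3-3 protein of the G2 arrest, was at -3.26 and -1.80 on the Met-low arrays and at -3.52 and -3.45 on the Met-high arrays. The second Met-low array alone was high, so that the log2 ratio of -0.96 (adjusted p = 0.27) became -1.69 (adjusted p = 0.0090) without Met-low replicate 1 and -0.23 (adjusted p = 0.67) without Met-low replicate 2. Gadd45a, a growth arrest and DNA damage gene, had a log2 ratio of -0.60 (adjusted p = 0.17), and Plk3, another stress-responsive polo-like kinase, had one of 0.31 (adjusted p = 0.28). Ccng2, which encodes cyclin G2, was well above background on 0 arrays.

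**Figure D2:**
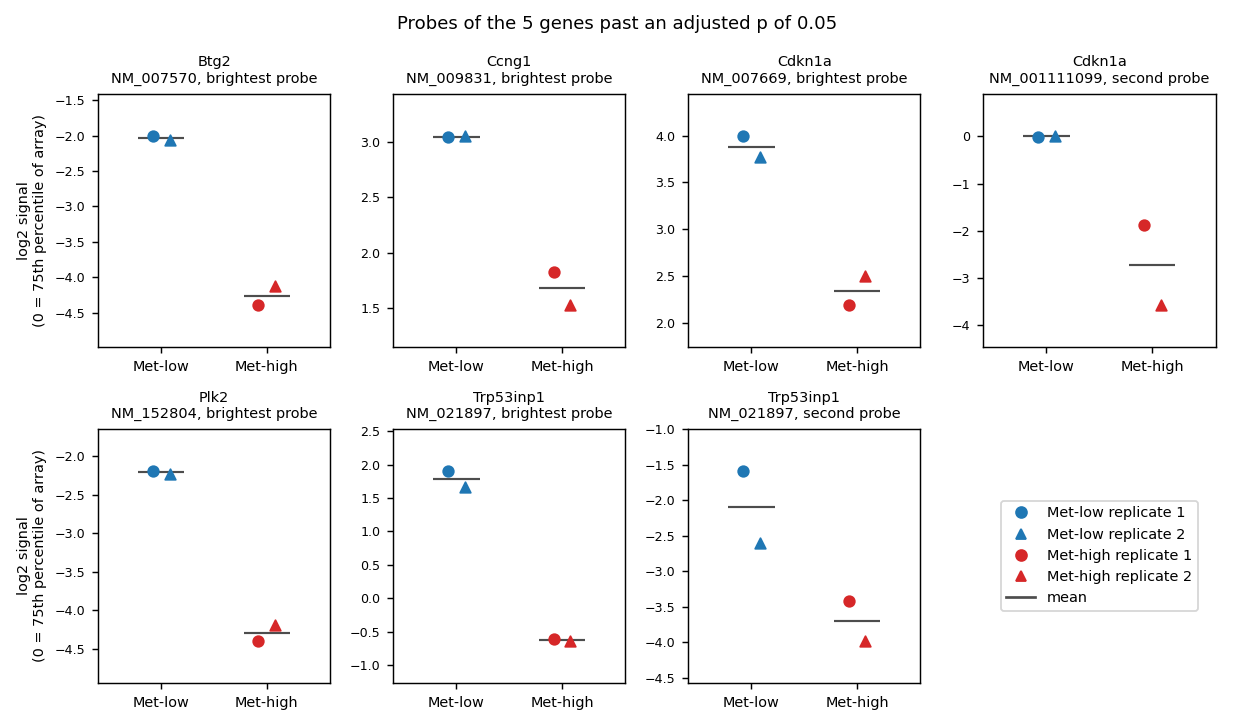
Every measured probe of the 5 genes that fell, on each array; the y axis is log2 signal relative to the 75th percentile of the array, points are arrays and lines are the means of 2 arrays, and each panel has its own scale. In all 7 panels both Met-low arrays lie above both Met-high arrays, and the second probe of Cdkn1a has the widest spread in the Met-high population, from -1.89 to -3.58.

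Of the 13 genes of cell death, 8 were kept and 1 fell, against 3.82% of all genes. The median log2 ratio over the 8 was -0.50. Trp53inp1, a stress protein that promotes p53-dependent apoptosis and takes part in autophagy, had the largest fall of all 26 genes. Its brightest probe was at 1.90 and 1.67 on the Met-low arrays and at -0.62 and -0.63 on the Met-high arrays. The Met-high arrays were nearly identical and lay far below both Met-low arrays, with a log2 ratio of -2.41 (SE 0.17, adjusted p = 0.0066), a 5.31-fold fall. Its second probe was at -1.59 and -2.60 on the Met-low arrays and at -3.42 and -3.98 on the Met-high arrays. That probe had the same order and a log2 ratio of -1.60, with an adjusted p over all probes of 0.10.

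Zmat3, a zinc finger protein that binds RNA and is a direct p53 target, was at 3.47 and 2.77 on the Met-low arrays and at 2.31 and 1.90 on the Met-high arrays. The groups did not overlap, but the Met-low arrays differed by more than the gap between the groups, and the log2 ratio of -1.01 (SE 0.29) had an adjusted p of 0.11. With 1 array left out, the ratio ranged from -1.37 without Met-low replicate 2 to -0.66 without Met-low replicate 1.

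The remaining 6 kept genes of cell death did not pass the test. Bbc3, which encodes the BH3-only killer protein Puma, had a log2 ratio of -0.64 (adjusted p = 0.084), and Phlda3, an inhibitor of Akt, one of -0.60 (adjusted p = 0.11). Aen, an apoptosis-enhancing nuclease, had -0.39, with -0.39 for its second probe too, Pidd1, a death domain scaffold, had -0.31, and Ei24, an endoplasmic reticulum protein of autophagy, had -0.19. These 5 genes showed no overlap, with the Met-low values on top in each, an order that 22.6% of all genes showed. Tnfrsf10b, the receptor of the death ligand Trail, went the other way, with a log2 ratio of 0.73 (SE 0.21, adjusted p = 0.11) and with the Met-high values on top, again without overlap. The death receptors Fas and Eda2r, the BH3-only gene Pmaip1, the desmosomal gene Perp and the autophagy gene Dram1 were well above background on 0 arrays.

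All 7 genes of stress, metabolism and repair were kept, 0 passed an adjusted p of 0.05 and 3 had an unadjusted p under 0.05, all lower (11.9% of all genes were lower at that level), with a median log2 ratio of -0.62. Polk, a DNA polymerase that copies past damaged bases, was at -1.04 and -0.64 on the Met-low arrays and at -2.57 and -1.95 on the Met-high arrays. The groups did not overlap, and the 2.68-fold lower mean (log2 ratio -1.42, SE 0.27) had an adjusted p of 0.051, just outside the threshold. Its second probe was at -2.85 and -3.04 on the Met-low arrays and at -4.11 and -4.33 on the Met-high arrays. That probe gave a log2 ratio of -1.28 with an adjusted p over all probes of 0.035, and the gene passed the threshold in 7 of 13 other settings. With 1 array left out, the ratio of the brightest probe ranged from -1.73 without Met-high replicate 2 to -1.11 without Met-high replicate 1.

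Abhd4, a lipid hydrolase, was also near the threshold, with a log2 ratio of -0.78 (SE 0.16, adjusted p = 0.056), no overlap, and a call in 4 of 13 other settings. Ephx1, the microsomal epoxide hydrolase, had -0.59 (adjusted p = 0.091), with -0.55 for its second probe, again without overlap. Sesn2, a stress-induced inhibitor of growth signalling, had -0.48 (adjusted p = 0.20), while the related Sesn1 had 0.20 (adjusted p = 0.51) and overlapped. Rrm2b, the p53-induced subunit of ribonucleotide reductase, overlapped at -0.62 (adjusted p = 0.34). Gdf15, a secreted stress cytokine, was at -3.28 and -3.85 on the Met-low arrays and at -5.61 and -3.35 on the Met-high arrays. Its first Met-high array was not well above background, and the log2 ratio of -0.92 (adjusted p = 0.47) was 0.22 without that array and -2.05 (adjusted p = 0.0051) without Met-high replicate 2.

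**Figure D3:**
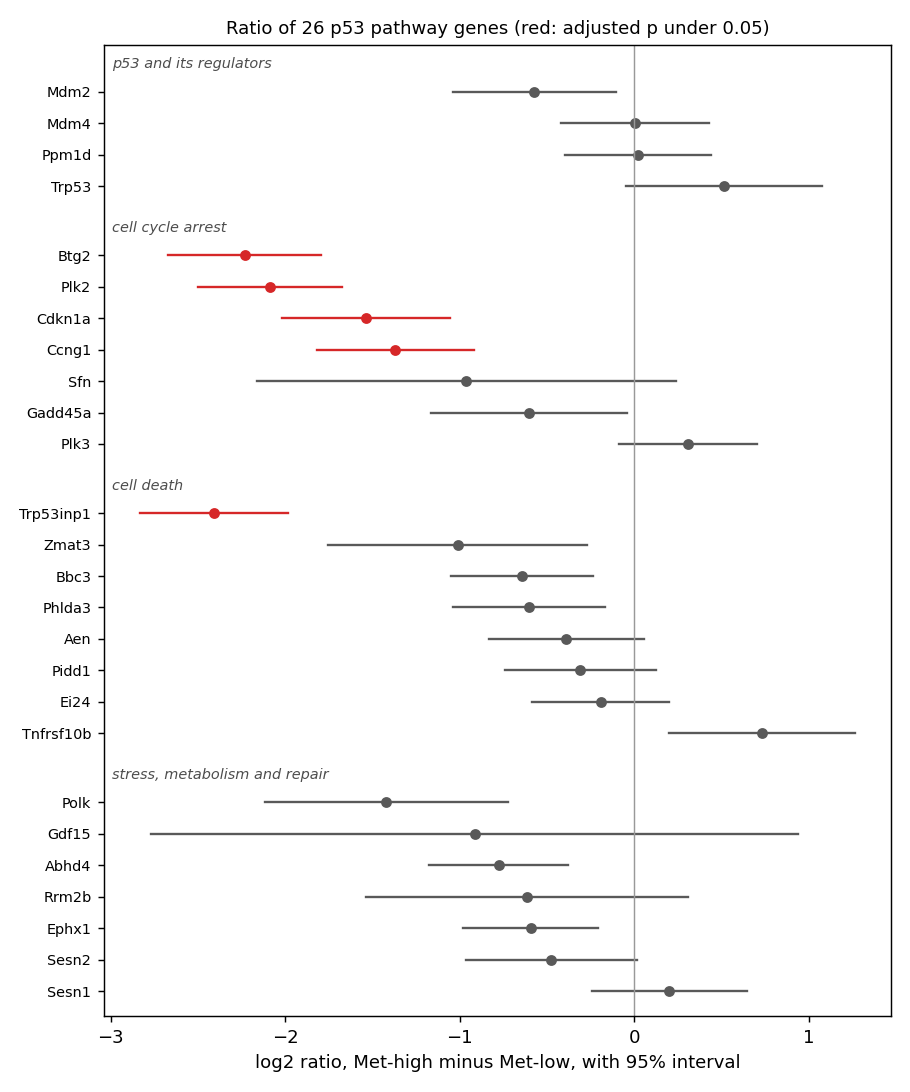
Log2 ratio of each of the 26 genes, Met-high minus Met-low, with its 95% interval from limma; red marks an adjusted p under 0.05. Trp53inp1, Btg2, Plk2, Cdkn1a and Ccng1 are the red points, all between -2.41 and -1.37, the 7 genes of arrest include 4 of them, and Tnfrsf10b is the highest point at 0.73.

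The 5 falls held in 12 of 13 other settings without a replicate block, and none of the 5 depended on a single array. They were lost when no filter on dim probes was used, where 20832 genes were tested, adjusted p-values lay between 0.075 and 0.12, and 7 genes of the whole array were lower and 0 higher.

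The mRNA of proteins that act on p53 was also measured. Of 18 p53 activators, 16 were kept and 0 passed the test, and the median log2 ratio was -0.02. At an unadjusted p of 0.05, 3 were lower and 2 higher, against 11.9% and 14.3% of all genes. Both Met-low arrays lay above both Met-high arrays in 7 of the 16 activators, against 22.6% of all genes. The reverse held in 6 of the 16, against 35.8% of all genes. The lowest ratios were those of the methyltransferase Setd7 (-0.67, adjusted p = 0.12) and the kinase Hipk2 (-0.62, adjusted p = 0.24), and the highest were those of Pml, the organiser of nuclear bodies (0.50, adjusted p = 0.14), and the deubiquitinase Usp10 (0.41, adjusted p = 0.17). The damage kinases Atm and Atr had log2 ratios of -0.01 and -0.03. Cdkn2a, the locus of the Mdm2 inhibitor p19Arf, was well above background on the first Met-high array alone and was not kept. Of 12 p53 inhibitors, 11 were kept and 0 passed the test. Of these 11, 1 was lower and 1 higher at an unadjusted p of 0.05, against 11.9% and 14.3% of all genes. The median log2 ratio of the 11 was -0.09. Without overlap, 4 of these 11 were lower and 3 higher in the Met-high population, against 22.6% and 35.8% of all genes. Their extremes were Bcl6 (-0.45) and Rchy1 (-0.35) below and Smyd2 (0.57) and Ppp1r13l (0.38) above, none with an adjusted p under 0.11. The p53 relatives Trp63 and Trp73 had log2 ratios of 0.07 and 0.51 and did not pass the test.

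Targets of p53 outside the list of 32 showed calls in the same direction. Of 33 such genes 28 were kept, and 4 fell and 0 rose, against 3.82% and 1.95% of all genes. At an unadjusted p of 0.05, 8 were lower and 1 was higher, against 11.9% and 14.3% of all genes. Their median log2 ratio was -0.15. Some of the 4 that fell were kept through the Met-low arrays alone, and the filter favours this direction for such genes. With only genes detected on all arrays, 2 were called lower and 0 higher, against 400 and 220 of 11223 genes. Ak1, an adenylate kinase, was at 3.61 and 3.31 on the Met-low arrays and at 1.71 and 1.58 on the Met-high arrays. Both Met-low arrays were higher, with a log2 ratio of -1.82 (SE 0.18, adjusted p = 0.011). Ddit4, an inhibitor of mTORC1 induced by stress, fell with a log2 ratio of -1.55 (SE 0.17, adjusted p = 0.014). Tap1, a peptide transporter of antigen presentation, was not well above background on either Met-high array and was at least 2.64-fold higher in the Met-low population (adjusted p = 0.021). With normexp background correction Tap1 no longer passed (adjusted p = 0.099). The mitochondrial glutaminase Gls2 had the highest ratio of these genes, 0.83 (SE 0.17, adjusted p = 0.057), and the polymerase Polh followed with 0.33. Bax, the classical pore-forming target, had a log2 ratio of -0.18 and overlapped.

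Cell cycle genes that p53 is known to repress through p21 were described beside Cdkn1a. Of 26 such genes 25 were kept, and 4 rose and 0 fell, against 1.95% and 3.82% of all genes. At an unadjusted p of 0.05, 20 were higher and 1 was lower, against 14.3% and 11.9% of all genes. Both Met-high arrays lay above both Met-low arrays in 21 of the 25, against 35.8% of all genes, and the median log2 ratio was 0.63. Plk1, the kinase of mitotic entry, was at 4.29 and 4.50 on the Met-low arrays and at 5.39 and 5.59 on the Met-high arrays. Plk1 thus rose 2.13-fold without overlap (log2 ratio 1.09, SE 0.17, adjusted p = 0.032). The replication helicase subunit Mcm5 (1.01, adjusted p = 0.042), the transcription factor Mybl2 (0.92, adjusted p = 0.045) and the mitotic kinase Aurka (0.87, adjusted p = 0.044) rose as well. Mki67, the proliferation marker, went the other way with a log2 ratio of -1.69 (SE 0.66, adjusted p = 0.19), at 2.67 and 3.42 on the Met-low arrays and at 0.38 and 2.34 on the Met-high arrays, and the centriole kinase Plk4 overlapped at -0.21.

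These 4 calls depended on single arrays, and those of Aurka, Mcm5 and Mybl2 also on the scaling. Plk1 kept its call with quantile normalization (limma adjusted p = 0.037) and with the percentile over detected probes (limma adjusted p = 0.042). The count was 1 with quantile normalization or with the percentile taken over probes detected on all arrays, where the medians were 0.49 and 0.48, and it was 0 without Met-low replicate 1 or without Met-high replicate 2 and 1 without Met-low replicate 2.

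**Figure D4:**
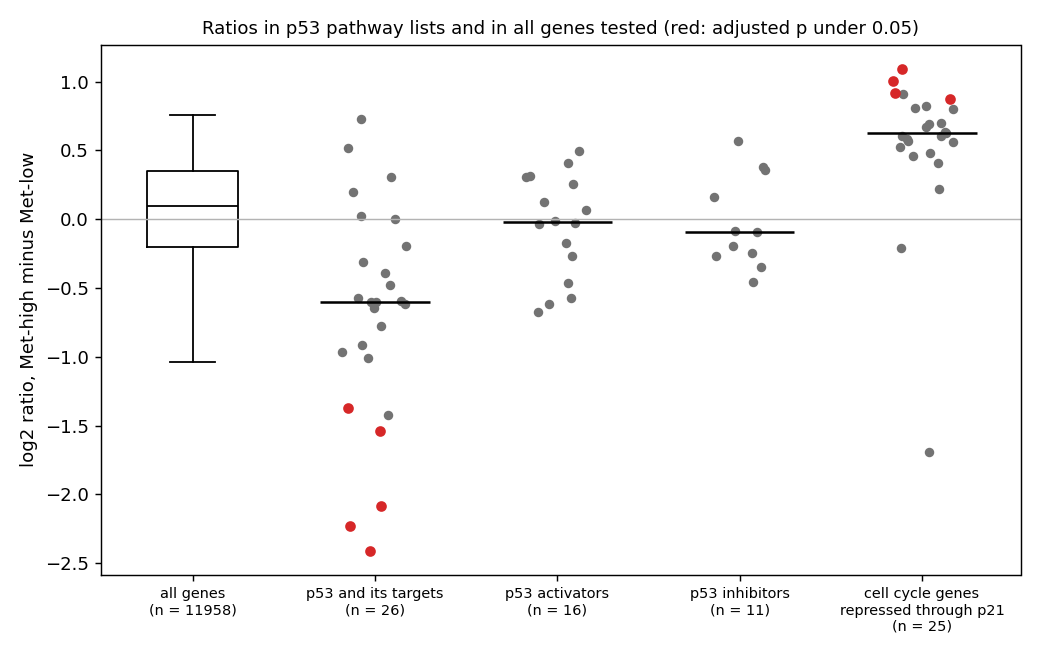
Log2 ratio, Met-high minus Met-low, of each kept gene in 4 lists beside all genes tested; points are genes, red marks an adjusted p under 0.05, lines are medians, and the box for all genes spans the 25th to 75th percentile with whiskers from the 5th to the 95th. The median is -0.60 for p53 and its targets, -0.02 for activators, -0.09 for inhibitors and 0.63 for the cell cycle genes, against 0.10 for all genes.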

How the data were processed

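RNA of 2 Met-low and 2 Met-high samples of the B16-F10 line was labelled with Cy3 and hybridised to Agilent mouse 44k arrays. The deposited scanner files hold intensity values that Feature Extraction (10.7.3.1 per the submitters' processing notes, 11.0.1.1 per the file headers) subtracted for background and detrended within each array, with the deposited flags for outliers, saturation and background. The deposited value table holds log2 values that the authors scaled by the 75th percentile and centred per probe in GeneSpring after a lowess step; it was used as an alternative.

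Control spots were left out (43020 spots remained) and then outlier-flagged spots, and log2 of the processed intensity minus the array's 75th percentile was averaged per probe (39429 probes), and accessions were named through RefSeq (27427 probes, 20832 genes). One probe per gene, the brightest over the 4 arrays, was kept where it was well above background on both arrays of a population (11958 genes). limma 3.58.1 (lmFit, eBayes) in R 4.3.3 tested all genes, two-sided, with Benjamini-Hochberg adjustment and a threshold of 0.05, and was tested on simulated data. The number of arrays limits the precision, and nothing but the group entered the model.

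The members and lists were chosen with earlier results of these data known, and the promoter search after the data were seen. Values on every array are given for members past the threshold or 2-fold and for Trp53, Mdm2, Mdm4 and Cdkn1a, and other members by ratio; of other lists, genes past the threshold and the 2 with the largest ratios in each direction are named. Outside this rule, and after their values were seen, Sfn, Gdf15, Mki67, Ak1 and Plk1 were given by array, and Atm, Atr, Bax and Cdkn2a were named. One gene among the other targets is not reported here. For a gene at background in a population, the bound uses, per array, the higher of the lowest signal well above background and its own. Alternatives were normexp with an offset of 50, quantile normalization, a percentile over detected probes, no or a stricter filter, keeping outlier-flagged spots, averaging the probes of each gene, each probe by itself, the authors' values, a mean-variance trend, a replicate block and leaving out each array.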

Additional observations from a re-analysis of the deposited data

How the results depend on the processing

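The replicate numbers were shared by both populations and samples of the same number deviated together (correlation 0.54), but with only 2 pairs they were not taken to pair the samples. A replicate block raised the calls to 1580 lower and 1976 higher genes on the whole array (457 and 233 without it). With the replicate block, 13 of the 26 p53 pathway genes were called lower and 1 higher, 4 activators lower and 2 higher, 1 inhibitor lower and 1 higher, 1 p53 relative higher, 8 other targets lower and 1 higher, and 1 cell cycle gene lower and 21 higher. With no filter on dim probes the calls were 0 among the 26 genes, 0 among other targets and 0 among the cell cycle genes. A mean-variance trend gave 8 of the 26 lower, 1 other target higher and 9 cell cycle genes higher (539 and 392 genes on the whole array). Keeping only genes detected on all arrays left 2 other targets called lower (400 of 11223 genes on the whole array). Cell cycle genes called higher were 7 with normexp, 1 with quantile normalization and 1 with the percentile over detected probes. On the whole array, 262, 221 and 140 of 11958 genes were called higher in these settings. With 1 array left out, the median log2 ratio of the cell cycle genes ranged from 0.61 to 0.74. Genes of the 26 without overlap and higher ranged from 3 to 5, with 5 without Met-low replicate 1. Over the 4 arrays, 35.8% of all genes showed this order. The percentile over detected probes moved the median of all genes from 0.10 to -0.05 and the calls to 595 lower and 140 higher, and the median of the 26 genes to -0.75. Mdm4 turned to -0.14 with that percentile and to -0.0017 with the authors' values, and ranged from -0.11 to 0.12 with 1 array left out. Ppm1d turned to -0.021 with normexp and to -0.12 with the percentile over detected probes, and ranged from -0.083 to 0.13 with 1 array left out. Gdf15 ranged from -2.05 to 0.22, turning without Met-high replicate 1. The cause of these shifts was not tested. Of the ratios of single genes under all settings, 410 kept their direction and their side of the threshold, 35 lost the call, 25 gained one and 8 changed sign.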
